A study of Mus musculus with 21 samples.

Results

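The genes described here are 10 response genes of the ERK pathway, namely the immediate early genes Egr1, Fos, Jun, Junb and Ier2 and the feedback or target genes Dusp6, Spry2, Spry4, Etv4 and Etv5. They are 10 of the 22512 genes in the count table, and they were found by gene symbol. The set was selected on measured expression, because Egr1 was among the largest decreases in Trim71-edited cells against their control. The difference between Trim71KO and W therefore chose the set. Values from that difference are given below as a description, without a test of the 10 genes. For other lists and for all genes, its counts of higher and lower genes are edgeR calls by adjusted p. As the same difference chose the set, these counts are also a description only and not a test of the set. The 7 groups of mouse embryonic stem cells have 3 total RNA libraries each, which the series' design text calls biological replicates. Every group came from the same parental line, of the strain 129S6/SvEvTac, with the reporter GFP_5xT71BS and stable FLAG-Cas9, so the controls carry both as well. Cells were grown on gelatin in medium with serum and LIF. In Experiment 1, unedited parental cells (W) were set beside lines edited in Trim71 (Trim71KO) or in Ago2 (Ago2KO). In Experiment 2, unedited cells carried a plasmid for T6B_WT or for T6B_MUT, each fused to mCherry. T6B is an Argonaute-binding peptide of TNRC6B that displaces TNRC6 proteins from Argonaute, and the mutant is its control. The edited lines of Experiment 2 carried an empty plasmid (Trim71KO_empty and Ago2KO_empty). Unedited cells with an empty plasmid are not analysed here, so in the comparison of an edited line with T6B_MUT the plasmid and the genotype differ together. The labels do not say whether an edited line was 1 clone.

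Fibroblast growth factors, above all FGF4, bind FGF receptors on embryonic stem cells and signal through adaptors, RAS, RAF and MEK to the kinase ERK. Active ERK and its downstream kinases switch on immediate early genes within minutes, partly through the serum response factor and its ETS-family partners. ERK also induces its own brakes, among them the phosphatase DUSP6 and the Sprouty proteins, and the ETS factors ETV4 and ETV5, which are widely used as readouts of FGF signalling. In these cells FGF and ERK signalling primes cells for differentiation, including toward primitive endoderm.

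The edited genes were looked at first. Trim71 lay at 602 to 618 CPM (read counts scaled to the library total, with the TMM correction) in W and at 412 to 459 CPM in Trim71KO. It lay at 482 to 503 CPM in T6B_MUT and at 393 to 409 CPM in Trim71KO_empty, so its RNA was lowered but present in both edited groups. Trim71 was also lower in Ago2KO, at 504 to 522 CPM (log2 fold change −0.25, edgeR adjusted p 0.00161). In unedited T6B_WT it lay at 416 to 445 CPM, below all T6B_MUT libraries but not called (edgeR adjusted p 0.102). A lower Trim71 level was thus not particular to the Trim71-edited groups. Ago2 lay at 134 to 153 CPM in W and at 39.8 to 43.6 CPM in Ago2KO. In the libraries labelled Ago2KO_empty it lay at 87.4, 167 and 45.6 CPM, against 112 to 143 CPM in T6B_MUT, and replicate 2 was above all T6B_MUT libraries. The Ago2 level thus went against the label there, and results from these libraries are given with and without replicate 2 where it moves them. Library totals were 29.6 to 50.8 M counts in Experiment 1 and 33.9 to 57.9 M in Experiment 2. All 10 markers of pluripotent cells were present in every group. Of 8 fibroblast markers 3 were in the table, and these summed to 2.73 to 11.6 CPM.

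Compared per kilobase of gene length, Fos, Jun and Egr1 had the lowest levels of the 10 genes in both controls. In W, the mean level was 1.26 CPM per kilobase for Fos, 1.42 for Jun and 2.64 for Egr1. It was 19.8 CPM per kilobase for Junb and 42.5 to 58.5 for Spry4, Spry2, Dusp6, Etv5, Etv4 and Ier2. In T6B_MUT the levels were 0.792 CPM per kilobase for Egr1, 1.37 for Fos and 1.93 for Jun, against 19.9 to 44.6 for the feedback genes and Ier2. Junb, at 8.47 CPM per kilobase, again lay between. Levels of Experiments 1 and 2 were not tested against each other.

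**Figure D1:**
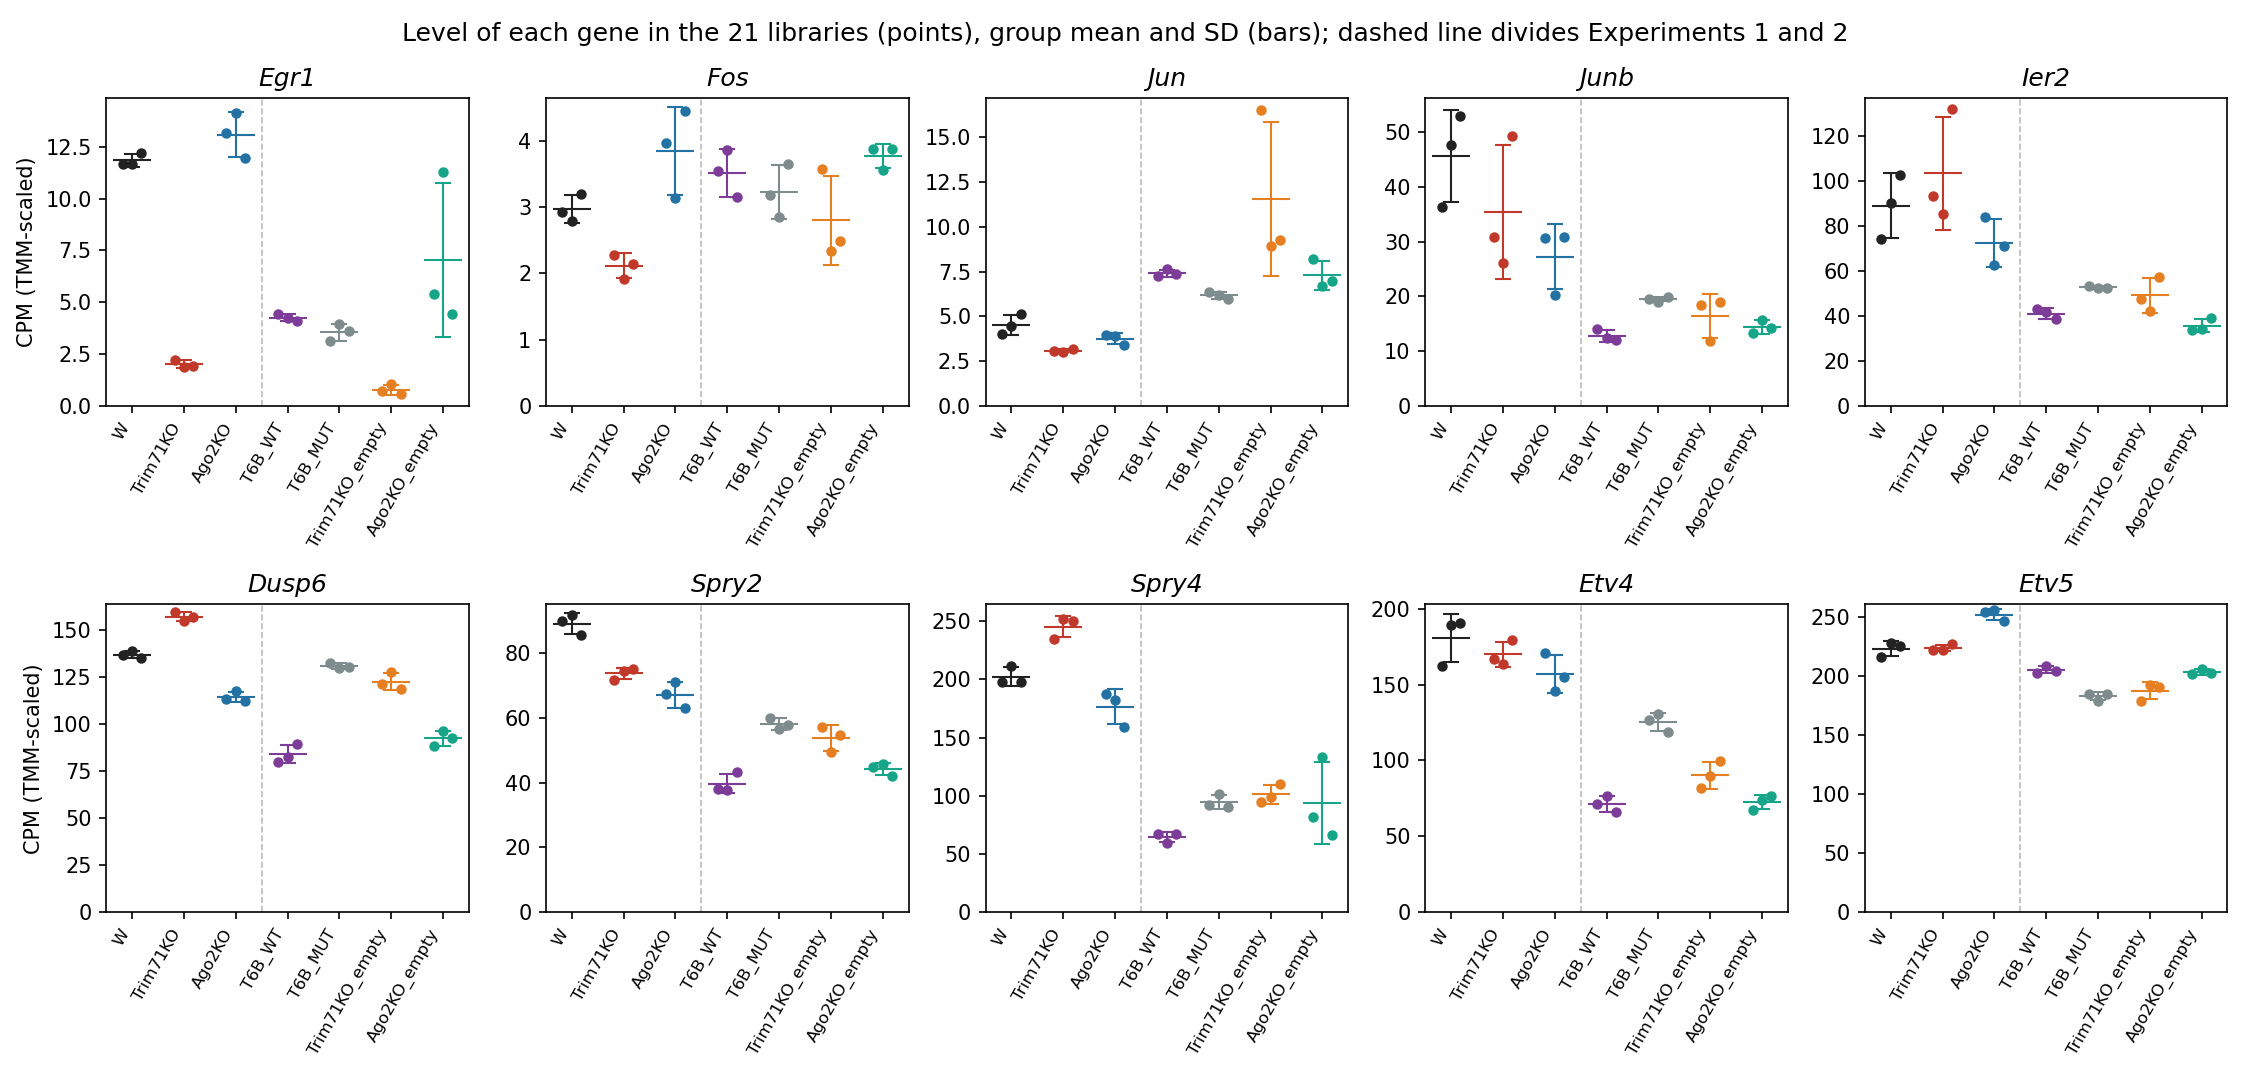
CPM of each of the 10 genes (vertical axes from 0) in each of the 21 libraries, as points by group along the horizontal axes. Long bars are group means and whiskers SD of 3 libraries. Egr1 lies at 1.89 to 2.23 CPM in Trim71KO and at 0.558 to 1.05 CPM in Trim71KO_empty, below every other library of the same experiment.

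Egr1 (ENSMUSG00000038418, chromosome 18, 34859823 to 34864984, plus strand, protein coding) encodes a zinc finger transcription factor that is switched on by growth factors. In Experiment 1 it stood at 11.7, 11.7 and 12.2 CPM in W and at 2.23, 1.89 and 1.91 CPM in Trim71KO. The means were 11.8 ± 0.294 and 2.01 ± 0.192 CPM (SD, n = 3). The groups were far apart, by a log2 fold change of −2.56 (SE 0.10), which is the value that chose the set. Ago2KO, which shares the W libraries with that difference, had 13.2, 14.1 and 11.95 CPM, overlapping W. Its log2 fold change, 0.14 (SE 0.08), did not pass the test (edgeR adjusted p 0.297).

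Experiment 2 measured Egr1 again, in other libraries than those of Trim71KO and W. The genes were chosen with earlier results of these data known, so this was not an independent test. T6B_MUT had 3.12, 3.93 and 3.60 CPM, and Trim71KO_empty had 0.720, 1.05 and 0.558 CPM. All 3 Trim71KO_empty libraries lay below all others of the experiment, at 20 to 36 counts each. Egr1 fell 4.58-fold, a log2 fold change of −2.19 (SE 0.40, edgeR quasi-likelihood test, Benjamini-Hochberg adjusted p 0.00254). Leaving out any library gave −2.46 to −2.02. Egr1 also differed between the edited lines, which carry the same empty plasmid, in a test that used the same Trim71KO_empty libraries. Against the libraries labelled Ago2KO_empty, at 5.39, 11.3 and 4.41 CPM, Egr1 in Trim71KO_empty was 9.05-fold lower (log2 fold change −3.18, SE 0.39, edgeR adjusted p 0.000146). Without Ago2KO_empty replicate 2 this was −2.65. Egr1 was itself higher in the libraries labelled Ago2KO_empty than in T6B_MUT, so these values also hold that difference.

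The libraries labelled Ago2KO_empty were all above T6B_MUT for Egr1, with a log2 fold change of 0.98 (SE 0.31, edgeR adjusted p 0.0372). This rested largely on replicate 2, without which the log2 fold change was 0.45 (edgeR adjusted p 0.0411). The call was lost without any single T6B_MUT library and with only those 2 groups in the fit, at adjusted p 0.0660 to 0.146 (edgeR). T6B_WT had 4.45, 4.24 and 4.11 CPM, all above T6B_MUT, but the 0.27 (SE 0.32) between them on the log2 scale did not pass the test (edgeR adjusted p 0.648). From high to low, the order was Ago2KO, W and Trim71KO in Experiment 1, where Ago2KO and W overlapped. In Experiment 2 it was Ago2KO_empty, T6B_WT, T6B_MUT and Trim71KO_empty, and only the first pair of neighbours overlapped.

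Markers of primitive endoderm, a cell type that arises in such cultures, moved beside Egr1 in Experiment 1. In Trim71KO, 11 of 12 were lower at an adjusted p under 0.05, beside 15.6% of all genes. The median log2 fold change of the 12 was −2.05. Their summed level was 615 to 635 CPM in W and 323 to 334 CPM in Trim71KO. In Ago2KO, 10 of the 12 were also lower, beside 7.78% of all genes, and the sum was 438 to 447 CPM. Egr1 overlapped W there. In Trim71KO_empty, 7 were lower and 2 were higher (Sox7 and Lama1), beside 13.4% and 14.4% of all genes, and the median was −0.80. The sum of 504 to 575 CPM overlapped the 505 to 522 CPM of T6B_MUT. That sum therefore does not show that the markers as a set were unchanged. Egr1 did not overlap. Gata6, a defining factor of that cell type, stood at 6.64 ± 0.276 CPM in W, 0.344 ± 0.118 in Trim71KO and 1.52 ± 0.246 in Ago2KO (SD, n = 3). It stood at 3.97 ± 0.480 CPM in T6B_MUT and 0.962 ± 0.0363 in Trim71KO_empty. No marker of the list was at 0 in a whole group. In bulk RNA, fewer cells of a type and less RNA per cell cannot be told apart, and the part of these cells in the Egr1 difference was not tested.

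The inducible heat shock genes Hspa1a and Hspa1b, which respond to heat and other stress, also lay lower beside Egr1. They were picked from a list of 10 heat shock and stress genes that did not move as a set. In Trim71KO, 3 of the 10 were lower and 7 were not called, with a median log2 fold change of −0.025. In Trim71KO_empty, 3 were lower, 1 was higher (Ddit3, at 0.78) and 6 were not called, with a median of −0.011. The shares of all genes lower were 15.6% and 13.4%. The sum of Hspa1a and Hspa1b was 28.8 to 37.3 CPM in W and 9.59 to 15.98 CPM in Trim71KO. It was 32.9 to 35.8 CPM in T6B_MUT and 17.98 to 27.8 CPM in Trim71KO_empty. Neither pair of groups overlapped. In Ago2KO the sum was 24.3 to 33.1 CPM. Both genes are near-identical copies, so reads can be split between them, and their part in the Egr1 difference was not tested.

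Markers of pluripotent cells lay higher beside the lower Egr1 in both Trim71 groups. Their summed level was 4812 to 5050 CPM in W and 5852 to 6187 CPM in Trim71KO, and 5065 to 5162 CPM in T6B_MUT and 5957 to 6086 CPM in Trim71KO_empty, without overlap. Of the 10, 6 were higher and 1 was lower in Trim71KO, and 5 were higher and 2 lower in Trim71KO_empty. The shares of all genes higher and lower were 16.9% and 15.6% in Trim71KO, and 14.4% and 13.4% in Trim71KO_empty. Klf4, Nanog, Esrrb and Zfp42 were among the higher genes in both groups. Dppa5a was lower in both, and Utf1 was lower in Trim71KO_empty. The median log2 fold change of the 10 was 0.40 in Trim71KO and 0.27 in Trim71KO_empty. In Ago2KO the sum was 5125 to 5242 CPM, also above W, and Egr1 overlapped W. The part of these markers in the Egr1 difference was not tested.

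**Figure D2:**
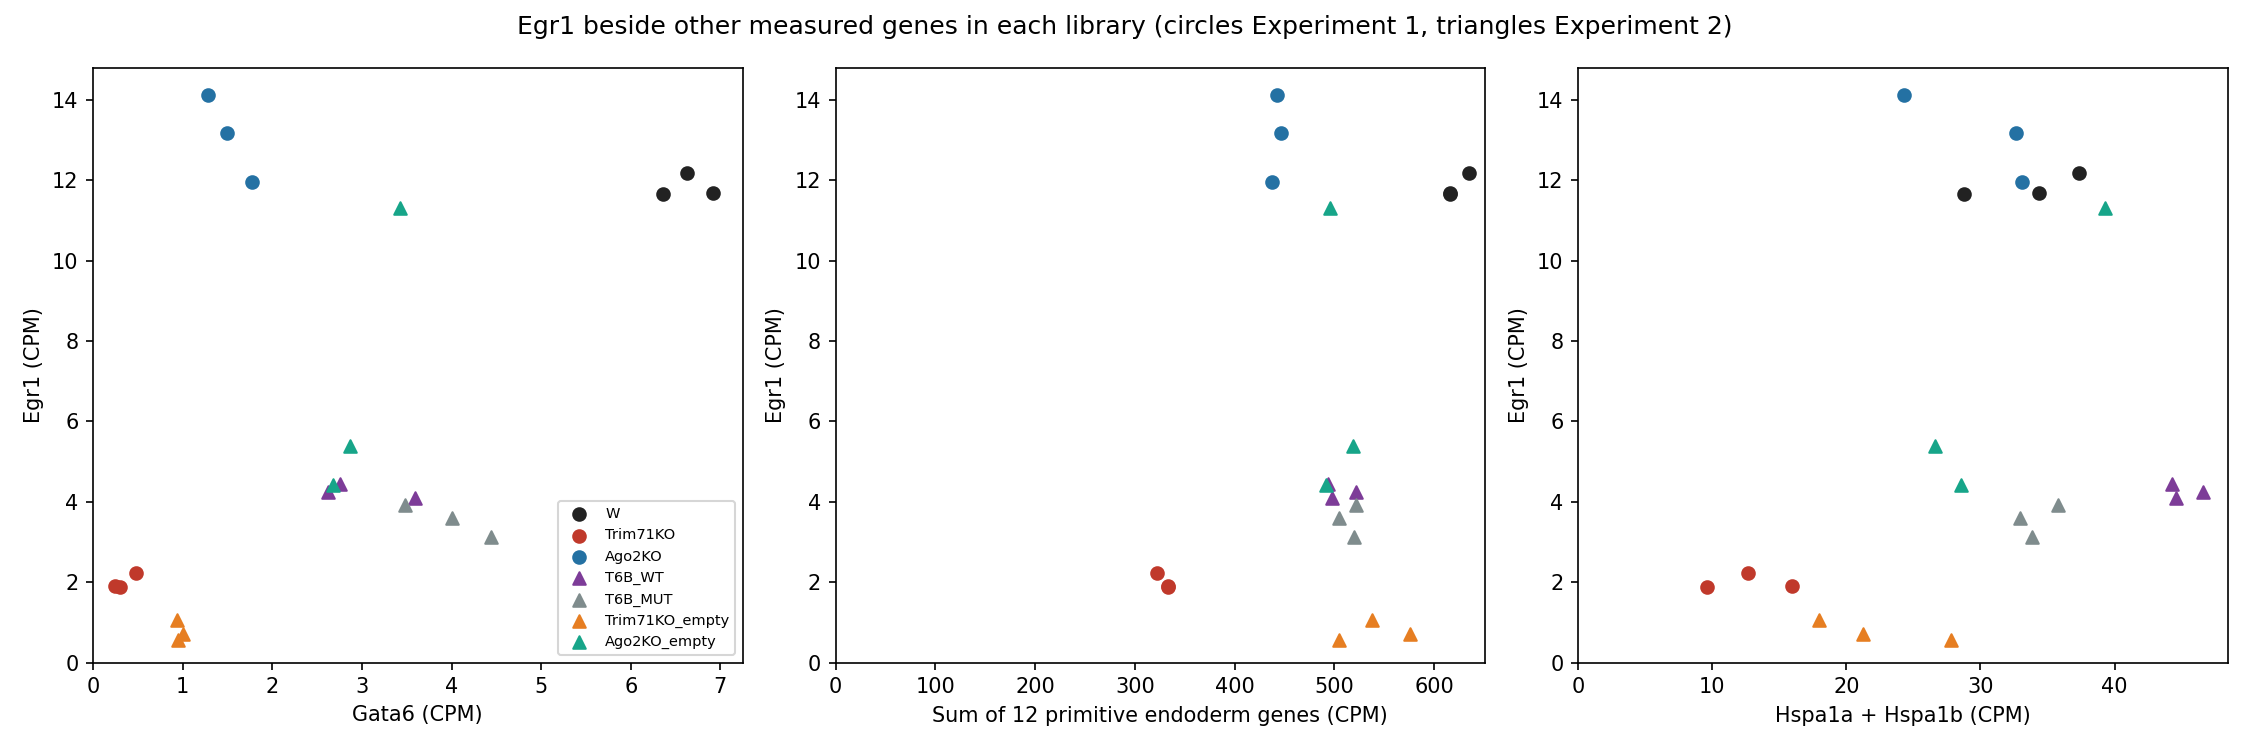
Egr1 (CPM, vertical axes) against Gata6, the sum of 12 primitive endoderm genes and the sum of Hspa1a and Hspa1b (CPM, horizontal axes), 1 point per library. Ago2KO has Egr1 at 11.95 to 14.1 CPM at a primitive endoderm sum of 438 to 447 CPM. Trim71KO_empty has Egr1 at or below 1.05 CPM at a sum of 504 to 575 CPM. That sum overlaps that of T6B_MUT, although 7 of the 12 genes were lower and 2 higher there.

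The genes whose pattern was most like that of Egr1 over the 7 group means, centred within each experiment on the log2 scale, were Lncenc1, Pdpn, Pla2g1b, Vwa3b and Bcl2l11. Their root mean square differences from Egr1 were 0.31, 0.35, 0.44, 0.44 and 0.46. None of them is an immediate early gene of the lists used here. Candidates had to reach 2 in mean log2 CPM, separately for each experiment. Fos, at 1.61 in Experiment 1 and 1.76 in Experiment 2, was under that level, as was Egr1 itself in Experiment 2 (1.98). A gene that moved with Egr1 but by less also lay far from it by this measure. The ranking therefore does not show whether immediate early genes followed Egr1. It also uses the Trim71KO and W values that chose the set. Among the other 9 genes of the set, taken without that minimum level, the nearest was Fos, at 0.93, and the remaining 8 lay between 1.12 and 1.33.

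Fos (ENSMUSG00000021250, chromosome 12, 85473890 to 85477273, plus strand) encodes a partner of JUN in the transcription factor AP-1. It stood at 2.93, 2.79 and 3.20 CPM in W, 2.28, 1.92 and 2.14 in Trim71KO, and 3.96, 3.14 and 4.45 in Ago2KO. Trim71KO lay below all W libraries (log2 fold change −0.49, SE 0.15), and Ago2KO overlapped W. In Experiment 2 it was 3.18, 2.85 and 3.65 CPM in T6B_MUT and 3.58, 2.34 and 2.48 CPM in Trim71KO_empty, with an overlap. The difference of −0.21 (SE 0.16) on the log2 scale did not pass the test (edgeR adjusted p 0.365). It ran from −0.43 without Trim71KO_empty replicate 1 (edgeR adjusted p 0.0657) to −0.098 without replicate 2. Ago2KO gave 0.39 (SE 0.14, edgeR adjusted p 0.0607), which was called at 0.50 without Ago2KO replicate 2. T6B_WT, at 3.54, 3.86 and 3.15 CPM, gave 0.12 (SE 0.15, edgeR adjusted p 0.676), and the libraries labelled Ago2KO_empty, at 3.87, 3.56 and 3.87 CPM, gave 0.22 (SE 0.15, edgeR adjusted p 0.305). Both overlapped T6B_MUT, so Fos did not pass the test against it in any group of Experiment 2. Trim71KO_empty against the libraries labelled Ago2KO_empty gave −0.42 (edgeR adjusted p 0.0514), and −0.63 (edgeR adjusted p 0.00757) without Trim71KO_empty replicate 1.

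Jun (ENSMUSG00000052684, chromosome 4, 95049034 to 95052222, minus strand) encodes the other subunit of AP-1. The antisense gene Junos overlaps it, and where strand was not used in counting their reads cannot be told apart. Jun stood at 4.03, 4.45 and 5.14 CPM in W and at 3.06, 3.03 and 3.18 CPM in Trim71KO, all lower (log2 fold change −0.55, SE 0.12). In Experiment 2 the same genotype lay on the other side of its control, at 16.5, 8.90 and 9.26 CPM in Trim71KO_empty against 6.34, 6.21 and 5.94 CPM in T6B_MUT. Jun rose there by a log2 fold change of 0.91 (SE 0.19, edgeR adjusted p 0.00328). Replicate 1 was the highest library, and without it the value was 0.56 (edgeR adjusted p 0.00161). Against the libraries labelled Ago2KO_empty, at 8.21, 6.68 and 6.99 CPM, Jun was higher by 0.67 (SE 0.19, edgeR adjusted p 0.0180). That difference was 0.33 (edgeR adjusted p 0.0335) without Trim71KO_empty replicate 1 and was no longer called without Ago2KO_empty replicate 2 (0.62, edgeR adjusted p 0.0598) or with only these 2 groups in the fit (0.66, edgeR adjusted p 0.106). Ago2KO, at 3.98, 3.90 and 3.40 CPM, lay below all W libraries without being called (−0.28, SE 0.12, edgeR adjusted p 0.125). T6B_WT, at 7.25, 7.63 and 7.36 CPM, lay above all T6B_MUT libraries and was not called either (0.27, SE 0.19, edgeR adjusted p 0.418).

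Junb (ENSMUSG00000052837, chromosome 8, 84974484 to 84978718, minus strand) encodes another JUN-family protein, and Prdx2 overlaps it on the opposite strand. Its libraries varied widely in Experiment 1, with 36.4, 47.7 and 52.9 CPM in W, 30.8, 26.2 and 49.4 in Trim71KO, and 30.6, 20.3 and 30.9 in Ago2KO. Trim71KO overlapped W (log2 fold change −0.36, SE 0.29), and the value ran from −0.68 without Trim71KO replicate 3 to −0.19 without replicate 2. Ago2KO lay below all W libraries without passing the test (−0.73, SE 0.30, edgeR adjusted p 0.157). In Experiment 2 the control was tight, at 19.6, 19.1 and 19.8 CPM in T6B_MUT, against 14.0, 12.3 and 12.1 CPM in T6B_WT. Junb fell in T6B_WT by 0.61 on the log2 scale (SE 0.14, edgeR adjusted p 0.00660). The libraries labelled Ago2KO_empty, at 13.4, 15.8 and 14.2 CPM, were also below all controls (−0.43, SE 0.14, edgeR adjusted p 0.0262), a call lost without T6B_MUT replicate 1 or 3 or Ago2KO_empty replicate 1. Trim71KO_empty, at 18.4, 11.8 and 19.0 CPM, was not called (−0.25, SE 0.13, edgeR adjusted p 0.192), at −0.38 without its replicate 3 and −0.064 without replicate 2. Against the libraries labelled Ago2KO_empty it gave 0.19 (edgeR adjusted p 0.330), and 0.39 (edgeR adjusted p 0.00451) without Trim71KO_empty replicate 2.

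Ier2 (ENSMUSG00000053560, chromosome 8, 84661331 to 84662852, minus strand) is an immediate early gene that encodes a nuclear protein. It stood at 74.3, 90.2 and 103 CPM in W, 93.4, 85.2 and 132 in Trim71KO, and 84.0, 62.7 and 71.1 in Ago2KO, and both edited groups overlapped W. The log2 fold changes were 0.22 (SE 0.21) in Trim71KO and −0.29 (SE 0.21, edgeR adjusted p 0.413) in Ago2KO. In Experiment 2, T6B_MUT was tight at 53.3, 52.6 and 52.3 CPM, and T6B_WT lay below it at 43.2, 41.6 and 38.6 CPM. Ier2 fell there by 0.36 (SE 0.09, edgeR adjusted p 0.00992), a call lost without T6B_WT replicate 3 (edgeR adjusted p 0.0531). It fell by 0.57 (SE 0.09, edgeR adjusted p 0.000181) in the libraries labelled Ago2KO_empty, at 33.7, 34.2 and 38.9 CPM. Trim71KO_empty, at 47.6, 42.4 and 57.5 CPM, overlapped T6B_MUT and was not called (−0.10, SE 0.09, edgeR adjusted p 0.440), and was called at −0.24 without its replicate 3. Junb and Ier2 lie on chromosome 8, whose 1060 tested genes had a median of 0.19 on the log2 scale in Trim71KO, against −0.01 for other genes. Relative to that median, Junb was at −0.55 and Ier2 at 0.02 in Trim71KO. In Trim71KO_empty the median of 1053 tested genes of the chromosome was 0.087, and relative to it Junb was at −0.33 and Ier2 at −0.19.

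Promoter sequence from RefSeq (GRCm38.p6) was searched for 6 of the 10 genes. Ier2 and Etv4 had no entry in the sequences used, and the promoters of Egr1 and Spry4 were left out of the search. The 250 bases before the start are printed for Fos, Junb and Dusp6, because they stand for a gene that was not called against T6B_MUT, a gene called with T6B, and a feedback gene called with T6B. The capitals mark every match, on either strand, to 5 motifs searched for as plain letters, and a match on the other strand shows as its reverse complement. The motifs were TATAAA of the general transcription machinery, CCAAT bound by NF-Y, GGGCGG bound by SP factors, TGACG from the core of the cyclic AMP response element, and CCGGAA, an ETS core.
Fos (chr12:85473640-85473889, plus strand): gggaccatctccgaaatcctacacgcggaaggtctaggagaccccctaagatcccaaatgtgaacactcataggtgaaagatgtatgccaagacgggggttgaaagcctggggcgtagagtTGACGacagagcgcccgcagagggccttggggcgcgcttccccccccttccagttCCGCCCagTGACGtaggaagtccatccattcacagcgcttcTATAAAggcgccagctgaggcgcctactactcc
Junb (chr8:84978749-84978998, minus strand): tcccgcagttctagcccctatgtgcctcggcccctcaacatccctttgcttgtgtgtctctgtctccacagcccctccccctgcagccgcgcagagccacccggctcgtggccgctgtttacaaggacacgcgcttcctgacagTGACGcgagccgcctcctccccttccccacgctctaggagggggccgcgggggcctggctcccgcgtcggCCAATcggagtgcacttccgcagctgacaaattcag
Dusp6 (chr10:99262981-99263230, plus strand): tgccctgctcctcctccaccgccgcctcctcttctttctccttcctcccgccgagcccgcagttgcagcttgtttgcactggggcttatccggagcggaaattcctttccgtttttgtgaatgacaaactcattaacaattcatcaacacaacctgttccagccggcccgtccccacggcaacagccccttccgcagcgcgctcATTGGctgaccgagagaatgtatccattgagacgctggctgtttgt
In the Fos promoter, TATAAA lay 33 bases before the start, a GC box 74 bases before it and TGACG both 66 and 129 bases before it. Of 32851 RefSeq promoters, 12.4% held TATAAA, 32.7% GGGCGG and 17.8% TGACG in a window of the same length. Junb held CCAAT 36 bases and TGACG 106 bases before the start, and Dusp6 held CCAAT 46 bases before it, a motif found in 33.8% of promoters. Of the motifs searched, CCGGAA (3952 promoters) was in none of these 3 windows, and no motif matched in the window of Spry2. A match of letters is a description of the sequence only.

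Dusp6 (ENSMUSG00000019960, chromosome 10, 99263231 to 99267489, plus strand) encodes the cytoplasmic phosphatase that switches ERK off, and its RNA is a common readout of ERK activity. It stood at 137, 139 and 135 CPM in W, 160, 155 and 157 in Trim71KO, and 113, 117 and 112 in Ago2KO, and no groups overlapped. Trim71KO was higher by a log2 fold change of 0.20 (SE 0.04). Dusp6 fell in Ago2KO by 0.26 (SE 0.04, edgeR adjusted p 0.000785). In Experiment 2 it stood at 133, 130 and 130 CPM in T6B_MUT and at 79.9, 82.7 and 89.2 CPM in T6B_WT. This was a fall of 0.64 (SE 0.06, edgeR adjusted p 1.01e-06), or 1.56-fold. In the libraries labelled Ago2KO_empty, at 88.4, 96.0 and 92.4 CPM, the fall was 0.50 (SE 0.06, edgeR adjusted p 1.10e-05). Trim71KO_empty, at 121, 128 and 119 CPM, lay just below T6B_MUT and was not called (−0.10, SE 0.06, edgeR adjusted p 0.266). Against the libraries labelled Ago2KO_empty it was higher by 0.41 (SE 0.06, edgeR adjusted p 4.96e-05).

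Spry2 (ENSMUSG00000022114, chromosome 14, 105891947 to 105896819, minus strand) encodes a Sprouty protein, which restrains receptor signalling upstream of ERK. It stood at 89.9, 91.9 and 85.6 CPM in W, 71.8, 74.4 and 75.0 in Trim71KO, and 67.3, 71.1 and 63.1 in Ago2KO. Both edited groups lay below all W libraries. The log2 fold change was −0.27 (SE 0.05) in Trim71KO and −0.41 (SE 0.05, edgeR adjusted p 0.000111) in Ago2KO. In Experiment 2, T6B_MUT had 60.03, 56.5 and 57.9 CPM and T6B_WT had 38.2, 37.8 and 43.2 CPM, a fall of 0.55 (SE 0.07, edgeR adjusted p 3.64e-05). The libraries labelled Ago2KO_empty, at 44.9, 45.7 and 42.2 CPM, fell by 0.39 (SE 0.07, edgeR adjusted p 0.000580). Trim71KO_empty, at 57.1, 49.4 and 54.9 CPM, overlapped T6B_MUT (−0.11, SE 0.07, edgeR adjusted p 0.264).

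Spry4 (ENSMUSG00000024427, chromosome 18, 38586247 to 38601415, minus strand) encodes a further Sprouty protein, and 2 short RNA genes, Gm27369 and Gm27804, overlap it on the opposite strand. It stood at 197, 211 and 198 CPM in W, 235, 251 and 250 in Trim71KO, and 187, 182 and 159 in Ago2KO, without overlap. Trim71KO was higher by 0.28 (SE 0.06). Spry4 fell in Ago2KO by 0.20 (SE 0.06, edgeR adjusted p 0.0331), a call lost without W replicate 2, W replicate 3 or Ago2KO replicate 3. In Experiment 2 the libraries labelled Ago2KO_empty were spread from 66.2 through 81.7 to 133 CPM, around the 92.3, 102 and 90.0 CPM of T6B_MUT. Their log2 fold change was −0.01 (SE 0.22, edgeR adjusted p 0.968), and −0.37 (edgeR adjusted p 0.00515) without replicate 2, the library with the highest Ago2. T6B_WT, at 66.7, 59.5 and 67.3 CPM, lay below all T6B_MUT libraries by 0.55 but was not called with the spread of all groups (SE 0.22, edgeR adjusted p 0.140). With only these 2 groups in the fit the value was −0.56 (edgeR adjusted p 8.40e-07). Trim71KO_empty, at 94.4, 98.5 and 110 CPM, overlapped T6B_MUT (0.09, SE 0.22, edgeR adjusted p 0.795). Against the libraries labelled Ago2KO_empty it gave 0.11 (edgeR adjusted p 0.754), and 0.46 (edgeR adjusted p 0.000670) without Ago2KO_empty replicate 2.

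Etv4 (ENSMUSG00000017724, chromosome 11, 101769742 to 101785371, minus strand) encodes an ETS transcription factor of the PEA3 group. In Experiment 1 the groups overlapped, with 162, 189 and 191 CPM in W, 167, 163 and 179 in Trim71KO, and 171, 146 and 155 in Ago2KO. The log2 fold changes were −0.09 (SE 0.07) in Trim71KO and −0.20 (SE 0.07, edgeR adjusted p 0.0612) in Ago2KO, the latter called at −0.27 without W replicate 1 or Ago2KO replicate 1 and at −0.20 with DESeq2. In Experiment 2 Etv4 had the largest decrease of the set in T6B_WT, from 126, 131 and 119 CPM in T6B_MUT to 71.2, 76.4 and 66.3 CPM. This was 1.76-fold, a log2 fold change of −0.81 (SE 0.08, edgeR adjusted p 9.64e-07). It fell by 0.78 (SE 0.08, edgeR adjusted p 9.74e-07) in the libraries labelled Ago2KO_empty, at 67.7, 73.9 and 76.8 CPM. It fell by 0.47 (SE 0.08, edgeR adjusted p 0.000153) in Trim71KO_empty, at 81.5, 89.6 and 99.5 CPM. No group of Experiment 2 overlapped T6B_MUT. Trim71KO_empty was higher than the libraries labelled Ago2KO_empty by 0.31 (SE 0.08, edgeR adjusted p 0.00502).

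Etv5 (ENSMUSG00000013089, chromosome 16, 22381309 to 22439719, minus strand) encodes another ETS factor of the PEA3 group. It stood at 217, 229 and 226 CPM in W, 222, 223 and 227 in Trim71KO, and 254, 256 and 247 in Ago2KO. Trim71KO overlapped W, with a log2 fold change of 0.00 (SE 0.04). Etv5 rose in Ago2KO by 0.17 (SE 0.04, edgeR adjusted p 0.0101), above all W libraries. In Experiment 2 it stood at 185, 179 and 185 CPM in T6B_MUT, 203, 209 and 204 in T6B_WT, and 202, 206 and 202 in the libraries labelled Ago2KO_empty. Both lay above T6B_MUT without overlap, at 0.17 (SE 0.06, edgeR adjusted p 0.0525) and 0.15 (SE 0.06, edgeR adjusted p 0.0485). The second call was lost without any single library of the comparison. Trim71KO_empty, at 179, 193 and 191 CPM, overlapped T6B_MUT (0.04, SE 0.06, edgeR adjusted p 0.676).

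**Figure D3:**
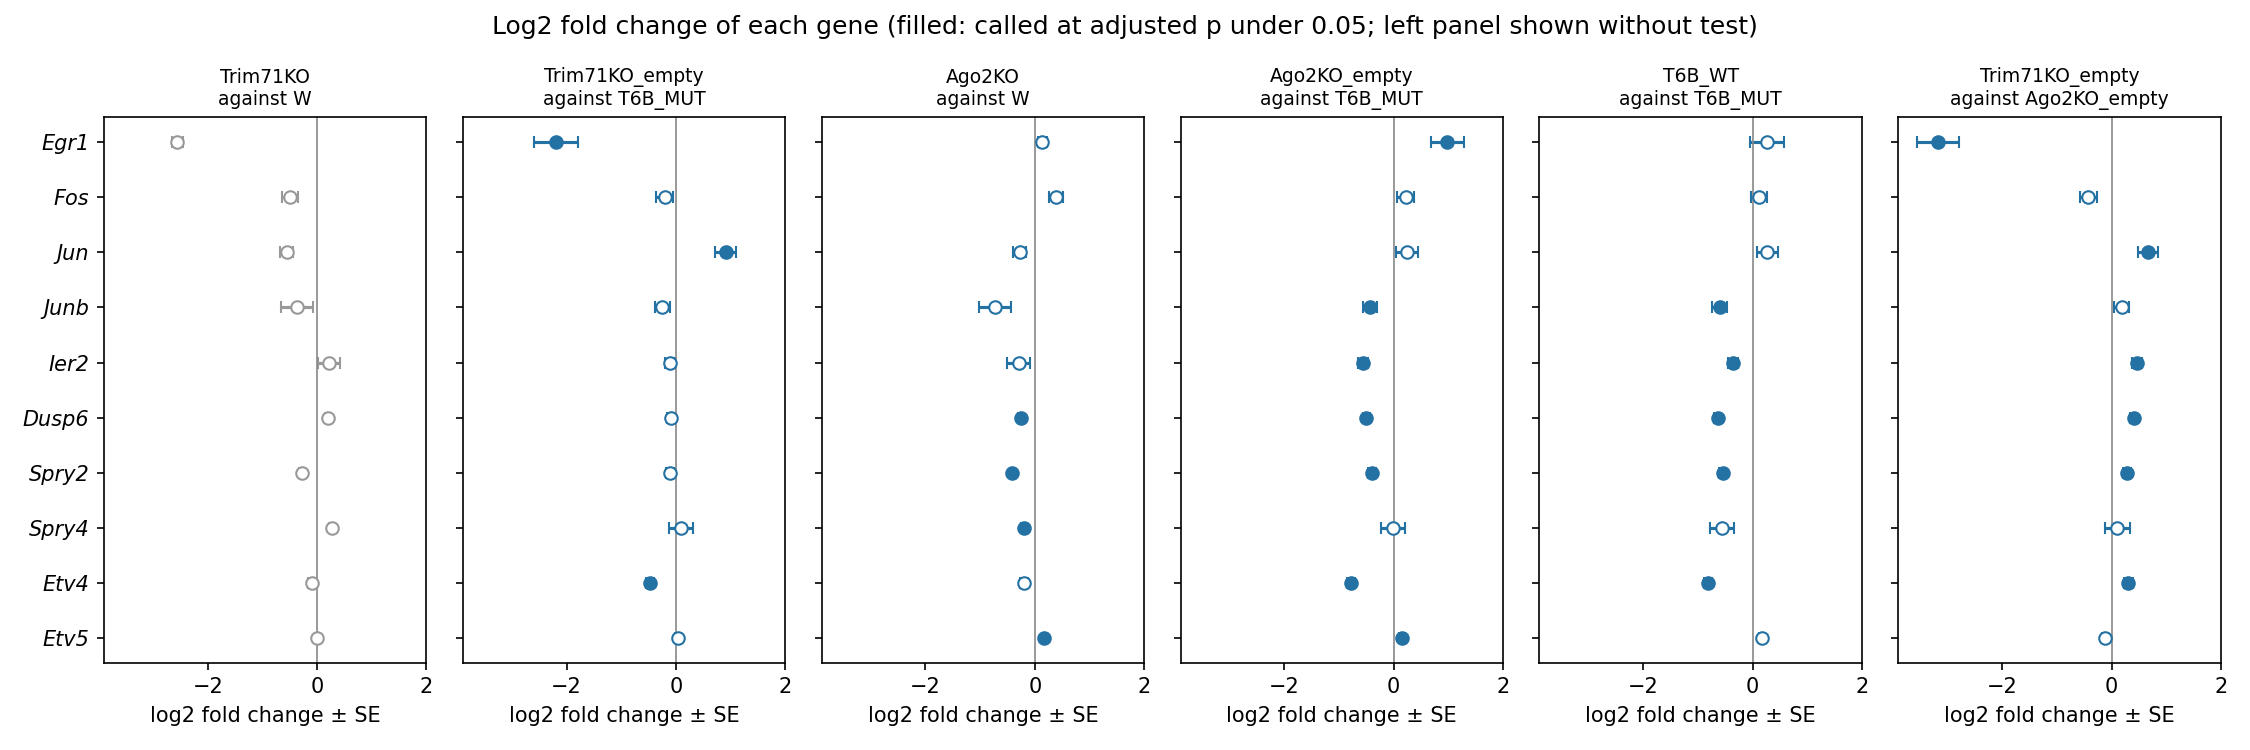
Log2 fold change of each gene (horizontal axes, whiskers SE) in 6 comparisons, with filled points called at an adjusted p under 0.05 by edgeR and the left panel, which chose the set, shown without a test. Egr1 stands apart at −2.19 in Trim71KO_empty, while Junb, Ier2, Dusp6, Spry2 and Etv4 lie left of 0 with T6B_WT, from −0.36 to −0.81.

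Read against all genes tested, the counts differed between comparisons. With T6B_WT, 5 of the 10 genes were lower (Junb, Ier2, Dusp6, Spry2 and Etv4) and none was higher by edgeR, where 6.69% of 21505 genes were lower and 9.29% higher. At an unadjusted p under 0.05, 1 was higher, and DESeq2 called 1 higher (Etv5). The median log2 fold change of the 10 was −0.45, against 0.01 for all genes. In the libraries labelled Ago2KO_empty, 5 were lower (Junb, Ier2, Dusp6, Spry2 and Etv4) and 2 were higher (Egr1 and Etv5), where 12.4% of genes were lower and 16.4% higher. Both comparisons share the T6B_MUT libraries. Without Ago2KO_empty replicate 2, 6 were lower and 1 was higher. In Ago2KO, 3 were lower (Dusp6, Spry2 and Spry4) and 1 was higher (Etv5), where 7.78% of 21210 genes were lower and 10.2% higher.

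The Trim71 genotype was compared in both experiments. In Trim71KO_empty, 2 were lower (Egr1 and Etv4) and 1 was higher (Jun), where 13.4% of genes were lower and 14.4% higher, and the median of the 10 was −0.11. The share of the 10 was near that of all genes. In Trim71KO against W, the contrast behind the choice, 4 lay below all W libraries (Egr1, Fos, Jun and Spry2), 2 lay above all of them (Dusp6 and Spry4) and 4 overlapped. Of all genes, 15.6% passed the threshold of adjusted p as lower and 16.9% as higher there. That is another measure than overlap, and the share of all genes without overlap is not given here. Nothing is read from the members beside it. Trim71KO_empty against the libraries labelled Ago2KO_empty gave 5 higher (Jun, Ier2, Dusp6, Spry2 and Etv4) and 1 lower (Egr1), where 14.7% of genes were higher and 16.9% lower. The difference between experiments in the Ago2 comparison was called by edgeR for Etv4 only, at −0.59 (SE 0.11, edgeR adjusted p 0.00319), where 2.13% of 22258 genes were called in either direction. For Egr1 that difference was 0.83 (SE 0.31, edgeR adjusted p 0.209), 0.33 (edgeR adjusted p 0.412) without Ago2KO_empty replicate 2 and 1.07 (edgeR adjusted p 0.0132) without Ago2KO_empty replicate 3. For Dusp6 it was −0.26 (SE 0.07, edgeR adjusted p 0.0680), and it was called with DESeq2 and without Ago2KO_empty replicate 2 or 3.

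The other genes of the pathway were taken from lists by role. Among FGF ligands, Fgf4, the main ligand in these cells, stood at 173 ± 5.18 CPM in W, 219 ± 4.84 in Trim71KO and 145 ± 2.167 in Ago2KO (SD, n = 3). It lay 0.34 higher on the log2 scale in Trim71KO than in W, and rose in Trim71KO_empty by 0.43 (edgeR adjusted p 6.98e-05). It fell in Ago2KO by 0.26 (edgeR adjusted p 0.000977) and in the libraries labelled Ago2KO_empty by 0.29 (edgeR adjusted p 0.00285). Fgf1, a ligand with a lower level, stood at 3.07 ± 0.166 CPM in T6B_MUT and rose to 6.73 ± 0.665 CPM in T6B_WT (SD, n = 3), by 1.13 on the log2 scale (edgeR adjusted p 7.28e-06). It rose by 1.07 in the libraries labelled Ago2KO_empty (edgeR adjusted p 9.18e-06) and by 1.05 in Ago2KO (edgeR adjusted p 0.000330). In Trim71KO_empty it gave 0.24 (edgeR adjusted p 0.214), and in Trim71KO it lay 1.64 above W. Fgf15 fell by 1.81 in Trim71KO_empty (edgeR adjusted p 9.39e-08), rose by 0.87 in T6B_WT (edgeR adjusted p 9.67e-05) and lay at −0.36 in Trim71KO. Fgf2 rose in Trim71KO_empty by 0.69 (edgeR adjusted p 0.0101), and Fgf17 fell in the libraries labelled Ago2KO_empty by 0.77 (edgeR adjusted p 0.00462). Of 5 FGF receptor genes, 3 were lower and 1 higher in Trim71KO, with Fgfr4 at −1.65, Fgfr2 at −0.79 and Fgfr1 at 0.43. Among all genes, 15.6% were lower and 16.9% higher there. In Trim71KO_empty, Fgfr2 was lower by 0.37 (edgeR adjusted p 0.0163) and Fgfr1 higher by 0.29 (edgeR adjusted p 0.0424). The Fgfr2 call was lost without T6B_MUT replicate 2 or Trim71KO_empty replicate 1 (edgeR adjusted p up to 0.0603). The Fgfr1 call was lost when any library of the comparison other than T6B_MUT replicate 2 was left out (edgeR adjusted p up to 0.155). No FGF receptor gene was called in T6B_WT by edgeR or DESeq2, 1 was higher at an unadjusted p under 0.05, and the 5 had a median of 0.18.

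Genes of the adaptors and the kinase cascade were called in both directions. Of 20 tested, 5 were higher and 4 lower in Trim71KO, 3 higher and 3 lower in Ago2KO, 3 higher and 1 lower in Trim71KO_empty, and 2 higher and 3 lower in T6B_WT. Among all genes, 16.9% were higher and 15.6% lower in Trim71KO, and 10.2% and 7.78% in Ago2KO. These shares were 14.4% and 13.4% in Trim71KO_empty, and 9.29% and 6.69% in T6B_WT. The median log2 fold change of the list was 0.04 in Trim71KO, 0.05 in Ago2KO, 0.01 in Trim71KO_empty and −0.000761 in T6B_WT. The RAS gene Nras fell in T6B_WT by 0.48 (edgeR adjusted p 3.64e-05), in Ago2KO by 0.31 (edgeR adjusted p 0.000925) and in the libraries labelled Ago2KO_empty by 0.43 (edgeR adjusted p 7.83e-05). Sos2, which encodes a RAS activator, rose in T6B_WT by 0.63 (edgeR adjusted p 0.000555) and in Ago2KO by 0.51 (edgeR adjusted p 0.00141). It was also called higher in the libraries labelled Ago2KO_empty, lay at 0.47 in Trim71KO and was not called in Trim71KO_empty. Of 13 serum response, ETS and RSK genes, 3 were lower and 1 higher in Trim71KO_empty, with the ETS factor gene Ets1 at −0.94 (edgeR adjusted p 0.000265) and Elk3 at 0.45 (edgeR adjusted p 0.000917). Elk3 was also called higher in Ago2KO and in the libraries labelled Ago2KO_empty, and lay at 0.42 in Trim71KO. The RSK gene Rps6ka3 and the serum response cofactor gene Mrtfb rose in the libraries labelled Ago2KO_empty by 1.31 (edgeR adjusted p 0.0135) and 1.01 (edgeR adjusted p 0.0302), and the RAS activator gene Sos1 by 1.01 (edgeR adjusted p 0.0197). Without replicate 2 these were 0.88, 0.59 and 0.63, still called. All 3 calls were lost with only the 2 groups in the fit or without T6B_MUT replicate 3, those of Mrtfb and Sos1 also without T6B_MUT replicate 1 or 2, and that of Mrtfb also without Ago2KO_empty replicate 1. In T6B_WT, 1 of the 13 was higher. None was lower by edgeR or DESeq2, and 1 was at an unadjusted p under 0.05.

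Of 13 further feedback and target genes, 12 were in the table. Spry1, a further Sprouty gene, fell in T6B_WT by 0.90 (edgeR adjusted p 6.34e-07), in Ago2KO by 0.77 (edgeR adjusted p 1.92e-05) and in the libraries labelled Ago2KO_empty by 1.10 (edgeR adjusted p 5.32e-08). Its mean was 17.2 ± 0.293 CPM in T6B_MUT and 9.18 ± 0.837 CPM in T6B_WT (SD, n = 3). It was higher by 0.91 in Trim71KO_empty than in the libraries labelled Ago2KO_empty (edgeR adjusted p 1.94e-07). Dusp9, an ERK phosphatase gene, fell in Trim71KO_empty by 0.81 (edgeR adjusted p 4.86e-06) and in Ago2KO by 0.59 (edgeR adjusted p 0.000435). Ccnd1, the cyclin D1 gene, fell in Trim71KO_empty by 1.07 (edgeR adjusted p 0.000462) and rose in T6B_WT by 0.74 (edgeR adjusted p 0.00718). Il17rd, which encodes an inhibitor of FGF signalling, rose in Ago2KO by 0.27 (edgeR adjusted p 0.00166) and in the libraries labelled Ago2KO_empty by 0.34 (edgeR adjusted p 0.00244). It lay at 0.32 in Trim71KO. Etv1, the further gene of the PEA3 group, rose in the libraries labelled Ago2KO_empty by 0.46 (edgeR adjusted p 0.00133). It was also called higher in Ago2KO and lay at 0.37 in Trim71KO. In Trim71KO_empty Etv1 rose by 0.25 (edgeR adjusted p 0.0497). That call was lost with DESeq2, without a filter and without any library other than Trim71KO_empty replicate 3. Phlda1 lay at −1.09 in Trim71KO and was not called in Trim71KO_empty (−0.58, edgeR adjusted p 0.126). Of 12 such genes tested, 4 were lower and 1 higher in T6B_WT, 5 lower and 3 higher in Ago2KO, and 3 lower and 1 higher in Trim71KO_empty. The shares of all genes lower and higher were 6.69% and 9.29% in T6B_WT, 7.78% and 10.2% in Ago2KO, and 13.4% and 14.4% in Trim71KO_empty.

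The list of other immediate early genes held 23 names, of which 21 were in the table. Of 21 tested in Experiment 1, 13 were lower and 1 was higher in Trim71KO, with a median log2 fold change of −0.57. Among all genes, 15.6% were lower and 16.9% higher there. In Ago2KO, 6 were lower, with a median of −0.20, where 7.78% of all genes were lower and 10.2% higher. None was higher in Ago2KO by edgeR or DESeq2, and 1 was at an unadjusted p under 0.05. The 13 included Dusp2 at −2.08 and Ccn2 at −1.59, and the gene that was higher was Btg2, at 0.97. These values come from the contrast that chose the set. Of 20 tested in Experiment 2, 6 were lower and 4 higher in Trim71KO_empty, with a median of −0.11, where 13.4% of all genes were lower and 14.4% higher. There Ccn2 fell by 0.74 (edgeR adjusted p 4.98e-05), while Ier5 rose by 0.98 (edgeR adjusted p 1.47e-05) and Btg2 by 0.86 (edgeR adjusted p 2.08e-07). In T6B_WT, 3 were higher and 1 was lower, where 9.29% of all genes were higher and 6.69% lower. Ccn1 and Ccn2, which encode secreted matrix proteins and are targets of YAP and serum response factor, rose there by 1.18 (edgeR adjusted p 5.17e-06) and 0.96 (edgeR adjusted p 2.57e-06), and Myc fell by 0.68 (edgeR adjusted p 0.000674). Egr2, Egr3, Spry3 and Fgf8 are not analysed here.

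**Figure D4:**
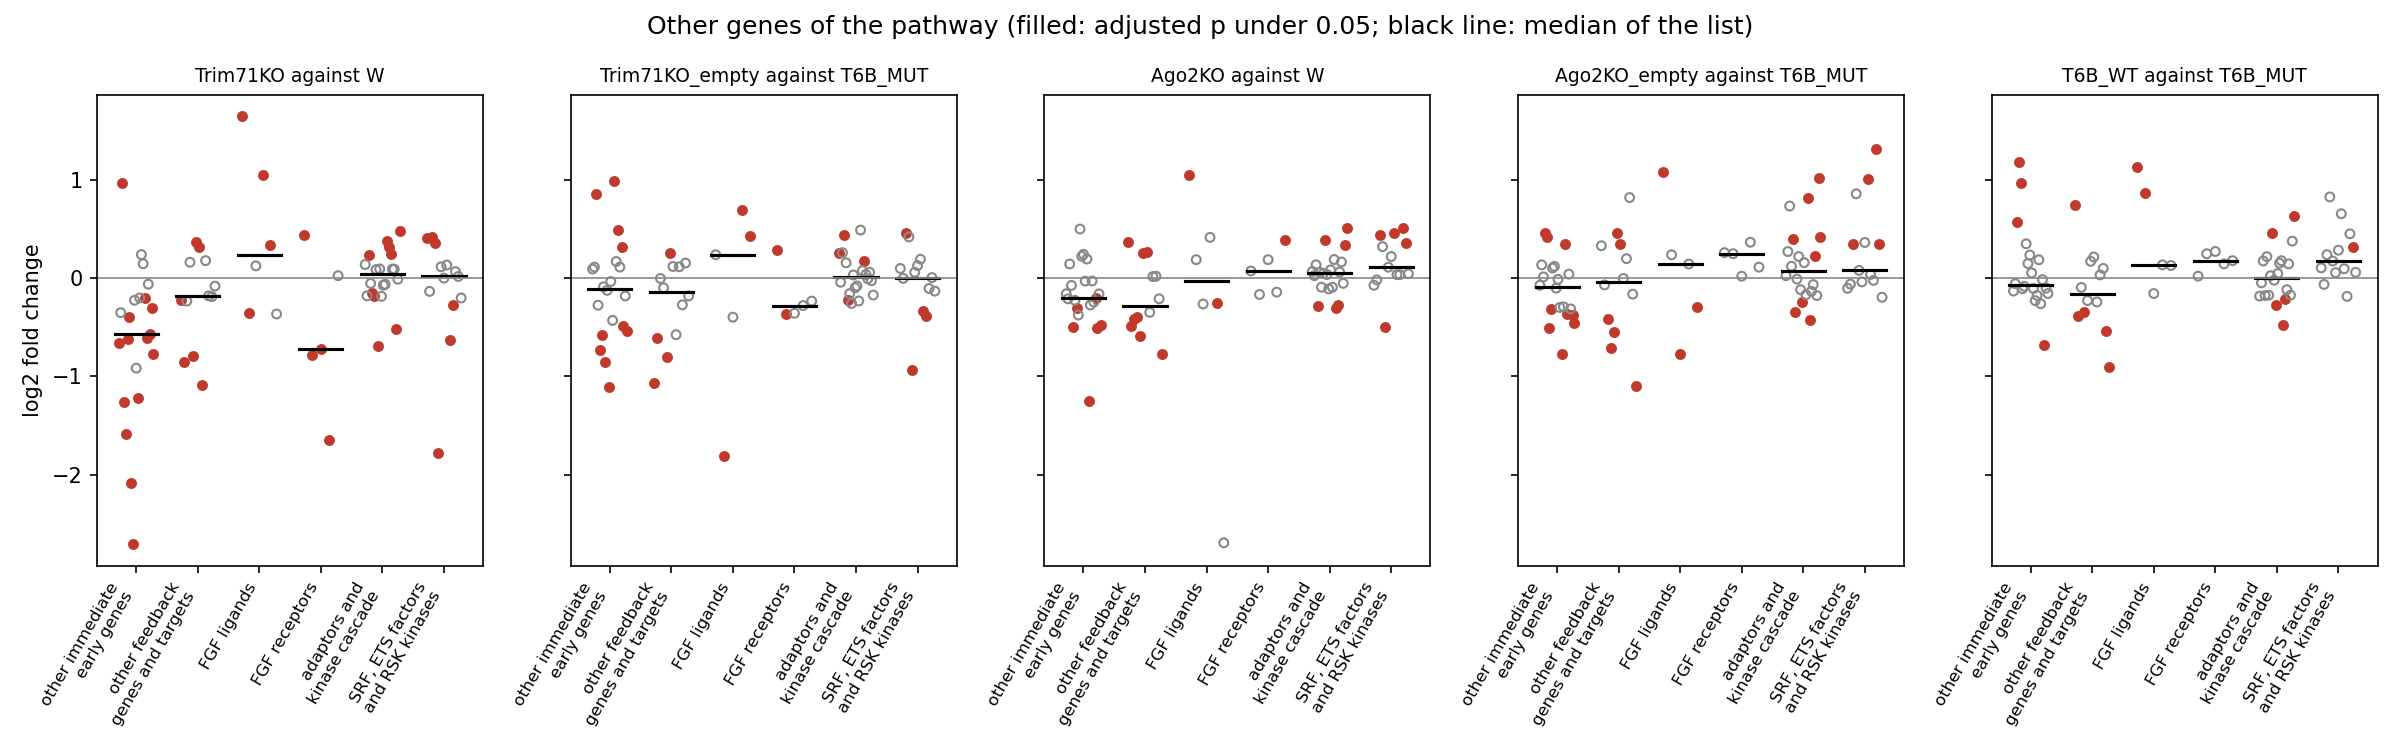
Log2 fold change (vertical axis) of the genes of 6 pathway lists in 5 comparisons, 1 point per gene, filled where called at an adjusted p under 0.05 by edgeR, with the list median as a black line. The other immediate early genes have a median of −0.57 in Trim71KO and −0.11 in Trim71KO_empty.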

How the data were processed

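Total RNA was sequenced in 21 libraries of 7 groups (stranded total RNA kit, per the labels' protocols). Per the file headers, the authors deposited raw read counts and RPKM values per gene. Reads were processed with STAR 2.7.3a and bcl2fastq 2.17 on GRCm38/mm10, per the submitters' processing notes. The annotation, the gene filter and the use of strand in counting are not given in the sources used here. The counts entered all tests, and RPKM served for checks only. Genes passing filterByExpr (minimum count 10) numbered 21210 in Experiment 1, 21505 in Experiment 2 and 22258 over all libraries. All 10 genes passed in each. Tests were edgeR 4.0.16 quasi-likelihood F tests (robust, TMM, Benjamini-Hochberg over all genes tested) in R 4.3.3, within each experiment (9 and 12 libraries) or over all 21 libraries for differences between experiments. Genes under an adjusted p of 0.05 are termed called. TMM factors were 0.956 to 1.03, and p-values measure the spread between these libraries. Positions are from GENCODE M21 (GRCm38). No 2 replicates agreed within sampling noise (chi-square per degree of freedom 3.74 to 86.4). DESeq2 1.42.0, RLE scaling, other filters, 2-group fits, a replicate block and leaving out each library were the alternatives.

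The 10 genes and the lists were chosen with earlier results of these data known. Named are the 10 genes, the edited genes and the 5 genes most like Egr1 (mean log2 CPM of at least 2 in both experiments). The rule also picked, per list and comparison, the 2 called genes that rose most and the 2 that fell most (mean log2 CPM of at least 0), and the text gives only some of these, picked after their values were seen. Other comparisons of such a gene, Gata6 and the sum of Hspa1a and Hspa1b were added after their values were seen.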

Additional observations from a re-analysis of the deposited data

Results flagged for a closer look

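Etv4 differed between the experiments in the Ago2 comparison. Its log2 fold change was lower by 0.59 in the libraries labelled Ago2KO_empty against T6B_MUT than in Ago2KO against W, a difference of −0.59 (adjusted p 0.00319, edgeR). Control, plasmid and experiment differ together between these comparisons and cannot be told apart.

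Jun moved in opposite directions in the Trim71-edited libraries of the experiments, lower in all 3 of Experiment 1 and higher in all 3 of Experiment 2 than their controls. The difference in log2 fold change was 1.46 and was not tested, since the Experiment 1 contrast chose the set. Dusp6 was higher than W in all 3 Trim71KO libraries and lower than T6B_MUT in all 3 Trim71KO_empty libraries, a difference of −0.29 that was likewise not tested.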

How the results depend on the processing

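Of the 10 genes, the number higher in Ago2KO was 1, and 2 with a filter of CPM over 1 in 3 libraries or with the replicate block. In the libraries labelled Ago2KO_empty it was 2, and 1 with RLE scaling, DESeq2, no filter or the replicate block and 0 with only the 2 groups fitted. In T6B_WT it was 0, and 1 with DESeq2 or the CPM filter and 2 with only the 2 groups fitted (Jun and Etv5). That fit also called 5632 genes, 2655 of them lower, against 3437 and 1439. For Trim71KO_empty against Ago2KO_empty the number lower was 1, and 2 with the CPM filter, and for the Ago2 difference it was 1, and 2 with DESeq2. Replicate numbers were not taken as pairs. Same-number deviations correlated at −0.59 to 0.58 in 9 pairs of Experiment 1, with a median of 0.061 against −0.088 for other pairs. In 18 pairs of Experiment 2 they correlated at −0.35 to 0.35, with a median of −0.047 against −0.0095. With 3 libraries per group this cannot exclude pairing. The block gave 3831 called genes in Ago2KO against 3812 and 5801 in Trim71KO_empty against 5975. Leaving out 1 library at a time gave 1015 to 1627 genes lower and 1 to 2 of the set higher in Ago2KO. In the libraries labelled Ago2KO_empty it gave 3893 to 8084 called genes, 2162 to 4380 higher and 1686 to 3704 lower, and 0 to 1 of the set higher. In T6B_WT it gave 2045 to 2497 called, 1284 to 1545 higher and 761 to 1014 lower. It gave 1 to 2 of the set lower in Trim71KO_empty against Ago2KO_empty. For the Ago2 difference it gave 269 to 1635 called genes, with 0 to 1 of the set higher and 1 to 2 lower. Directions near 0 turned. Etv5 in Trim71KO, at 0.00234, was −0.00132 with RLE scaling, −0.00126 with DESeq2, −0.00252 without a filter and −0.00758 with 2 groups fitted, and −0.021 to 0.018 with a library left out. With a library left out, Spry4 ran from −0.37 to 0.16 in Ago2KO_empty and from −0.066 to 0.46 in Trim71KO_empty against Ago2KO_empty. The Ago2 difference ran from −0.037 to 0.056 for Spry2, −0.16 to 0.36 for Spry4 and −0.053 to 0.019 for Etv5. Ago2 itself ran from −0.053 to 0.068 in Trim71KO, −0.13 to 0.061 in Trim71KO_empty, −0.90 to 0.021 in Ago2KO_empty and −0.084 to 0.83 between the last 2, and Trim71 from −0.14 to 0.066 in Ago2KO_empty. Egr1 at 20 to 36 counts in Trim71KO_empty has the largest counting error of the set. The cause of these shifts was not tested.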
